A study of Homo sapiens with 4 samples.

Results

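The genes described here are regulators of the tumour suppressor p53 and genes that p53 is known to activate, 39 in all out of 19653 measured genes. They were chosen by symbol from a list of the pathway, with earlier results of these data known. Each had 1 row in the count table. RNA was sequenced from hTERT-RPE1, a line of human retinal pigment epithelium that telomerase has made immortal, in 2 libraries labelled sg53BP1 and 2 libraries labelled sgControl. Cells labelled sg53BP1 had been transduced with a lentiviral CRISPR-Cas9 vector that carries a guide RNA against 53BP1, and cells labelled sgControl had received the same kind of vector with Cas9 and no guide. All cells thus share hTERT, Cas9 and the viral vector, and no treatment was given to either group. The labels do not say whether a group is a clone or a pool, nor whether its libraries came from separate cultures, so p-values measure no more than the spread among these 4 libraries, which may be technical.

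p53 is a transcription factor that is held at a low level by the ubiquitin ligase MDM2 and its partner MDM4, and that is stabilised when DNA is damaged or when cells spend too long in mitosis. 53BP1 binds p53 and the deubiquitinase USP28, and in RPE1 cells, which retain functional p53, these proteins are known to act together in the arrest that follows a delayed mitosis or the loss of centrosomes. Stabilised p53 binds a response element of paired decamers in its target genes, which halt the cell cycle, promote apoptosis, aid DNA repair, adjust metabolism or, as MDM2 does, limit p53 itself.

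RNA of the targeted gene was not lowered in the libraries labelled sg53BP1. TP53BP1, which encodes 53BP1, had 1743 and 1516 counts in the libraries labelled sg53BP1, against 431 and 594 counts in those labelled sgControl. TP53BP1 was 2.94-fold higher under the knockout label (log2 fold change 1.56, SE 0.18, edgeR quasi-likelihood adjusted p = 0.00224), and the groups did not overlap. RNA counts do not show whether the gene was cut or its protein lost. Whether the labels are exchanged was not tested. Each direction below follows the labels and would turn if they were. Without replicate 1 or replicate 2 labelled sg53BP1 the edgeR adjusted p of TP53BP1 was 0.144 and 0.106.

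Total counts lay between 16654411 and 18164086 per library. Markers of pigment epithelium were mixed. OTX2 and MITF, transcription factors of that tissue, had between 114 and 220 counts and between 484 and 680 counts, while the retinoid carrier RLBP1 had at most 13 counts and the pigment enzyme TYR at most 2. Of 13 listed markers the 11 in the table summed to 60.0 and 54.6 CPM (counts scaled to a common library size with TMM, the trimmed mean of M values) in the libraries labelled sg53BP1 and to 46.9 and 54.1 CPM in those labelled sgControl. The keratins KRT8 and KRT18 had between 1821 and 14276 counts, and the epithelial adhesion genes EPCAM and CDH1 at most 2. Blood markers summed to at most 1.43 CPM and endothelial markers to between 2.33 and 15.8 CPM. Of 8 fibroblast markers, 5 were tested and THY1 and PDGFRA fell (edgeR adjusted p = 0.00602 and 0.0386). The 8 together summed to 203 and 214 CPM in the libraries labelled sg53BP1, against 379.5 and 336 CPM in those labelled sgControl. In bulk RNA fewer cells of a type and less RNA per cell cannot be told apart, and the part of these markers in the p53 genes' levels was not tested. Replicate 2 labelled sgControl stood apart from the other 3 libraries: mitochondrial genes took 1.74% of its counts, against 2.73% to 2.93% elsewhere, and histone genes took 0.0276%, against 0.0116% to 0.0145%.

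PHLDA3, an inhibitor of AKT, and the kinase PLK2 fell in the libraries labelled sg53BP1, and no other of the 39 members passed the test. Of the 39 members, all of which passed the low-count filter, 2 were lower and none was higher in the libraries labelled sg53BP1 at an adjusted p below 0.05 (quasi-likelihood test in edgeR, with Benjamini-Hochberg adjustment over 13140 genes). Over all tested genes 3.01% were called lower and 2.07% higher, so the members' count is near the background. At an unadjusted edgeR p below 0.05 no member was higher, beside 8.41% of all tested genes, and 3 were lower, beside 10.9%. Neither the DESeq2 Wald test nor limma-voom called a member higher at an adjusted p below 0.05, while 3.21% and 2.23% of all tested genes were called higher by them. Leaving out replicate 1 labelled sg53BP1 left no member called, beside 0.0219% of tested genes higher and 0.0146% lower. Without replicate 2 the members' count was again 0, beside 0.0293% and 0.00731%. The median log2 fold change of the members was −0.11, beside −0.02 for all tested genes, with values from −0.84 for GDF15 to 0.39 for CPT1C. A negative sign was found for 29 members and a positive one for 10, beside 6907 and 6233 of the 13140 tested genes.

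**Figure D1:**
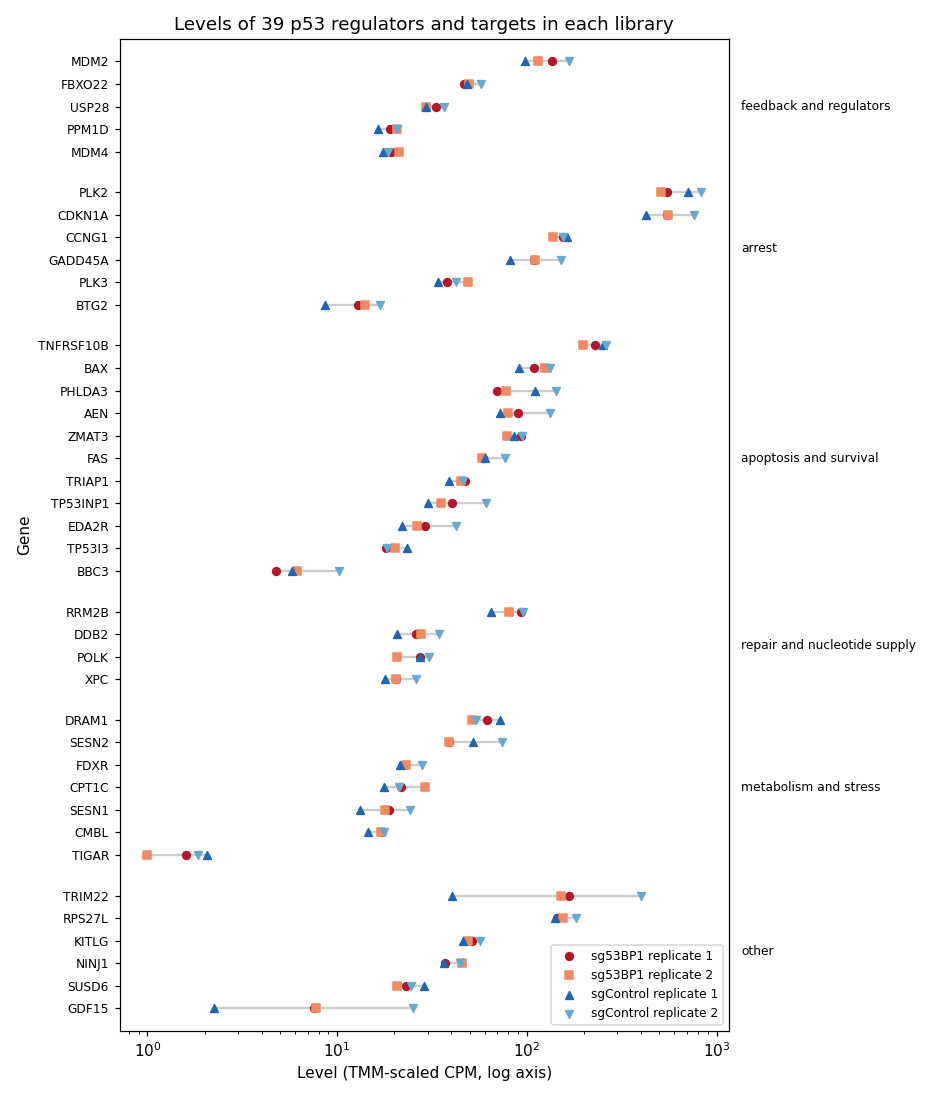
Levels of the 39 p53 genes in each library, in TMM-scaled CPM on a log axis, grouped by function, with 1 point per library and a grey line over their range. The libraries labelled sg53BP1 lie between those labelled sgControl for CDKN1A, MDM2, GDF15 and TRIM22, and below both for PLK2, PHLDA3 and SESN2.

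None of the 5 regulators of p53 passed the test. MDM2, the ligase that degrades p53 and is itself a p53 target, had 136 and 115 CPM in the libraries labelled sg53BP1, against 97.5 and 168 CPM in those labelled sgControl. Its libraries labelled sg53BP1 lay between the others, and the log2 fold change of −0.08 had a 95% interval from −0.84 to 0.67. MDM4, which binds p53 and blocks its activation domain, had 19.3 and 21.2 CPM against 17.4 and 18.6 CPM, so that its groups did not overlap, but the difference was not past the threshold (log2 fold change 0.17, edgeR adjusted p = 0.641). USP28, the deubiquitinase that works with 53BP1, had 33.2 and 29.4 CPM in the libraries labelled sg53BP1, against 29.4 and 36.8 CPM in those labelled sgControl. For USP28 the 95% interval of the log2 fold change ran from −0.45 to 0.29, so a 2-fold change in either direction lies outside it. PPM1D, the phosphatase WIP1 that switches p53 signalling off, had 19.0 and 20.6 CPM against 16.4 and 20.6 CPM. FBXO22, the substrate receptor of a ubiquitin ligase, had 46.6 and 49.3 CPM against 48.1 and 57.6 CPM. Both genes overlapped between the groups.

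Sequence of the inner MDM2 promoter is shown because MDM2 is the feedback target of p53 and its transcription from this start is known to depend on p53. The 250 bases before that start, from RefSeq on GRCh38.p14 (chr12:68808767-68809016, plus strand; the counts were made on hg19), hold 2 close matches to the p53 response element, given in capitals. They begin 94 and 56 bases before the start and differ from the 20-letter consensus at 2 and 3 letters.
MDM2 inner promoter: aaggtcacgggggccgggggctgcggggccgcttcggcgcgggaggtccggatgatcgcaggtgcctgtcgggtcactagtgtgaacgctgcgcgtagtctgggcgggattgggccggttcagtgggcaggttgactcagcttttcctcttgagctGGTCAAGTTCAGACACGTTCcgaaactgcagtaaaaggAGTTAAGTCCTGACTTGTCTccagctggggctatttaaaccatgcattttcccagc

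Among the genes of cell cycle arrest, PLK2 fell, and CDKN1A did not pass the test. PLK2, a polo-like kinase with roles in centriole duplication and the stress response, had 545 and 512 CPM in the libraries labelled sg53BP1, against 711 and 829.7 CPM in those labelled sgControl. Both libraries labelled sg53BP1 were below both others. PLK2 averaged 529 ± 23.2 CPM in the libraries labelled sg53BP1 and 770.4 ± 83.8 CPM in those labelled sgControl (SD, n = 2 each), 1.46-fold lower (log2 fold change −0.54, SE 0.13, edgeR adjusted p = 0.0474). This call stood close to the threshold, and it was lost with DESeq2 size factors (adjusted p = 0.0517), with library totals, where it lay just above the threshold, and with a block for replicate number (adjusted p = 0.128). In the authors' deposited table PLK2 had a log2 fold change of 0.52, there control over knockout, with an adjusted p of 0.00825. Without replicate 1 or replicate 2 labelled sg53BP1 its edgeR adjusted p was 0.579 and 0.687, where the spread comes from the libraries labelled sgControl alone.

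CDKN1A, which encodes the cyclin-dependent kinase inhibitor p21 and is the best known p53 target, had 549.5 and 554 CPM in the libraries labelled sg53BP1, against 424 and 763 CPM in those labelled sgControl. The libraries labelled sg53BP1 were close to each other and lay between the others. Its log2 fold change was −0.11 with a 95% interval from −0.92 to 0.71 (edgeR adjusted p = 0.903), so differences within that interval remain possible. GADD45A, a growth arrest gene induced by DNA damage, had 109 and 111 CPM against 81.6 and 151 CPM. BTG2, an antiproliferative cofactor of mRNA decay, had 12.9 and 13.9 CPM against 8.68 and 16.8 CPM. GADD45A and BTG2 repeat the layout of CDKN1A, with the libraries labelled sg53BP1 in the middle. The cyclin CCNG1, part of the feedback on MDM2, had 155 and 138 CPM against 164 and 155 CPM. PLK3, a stress-activated polo-like kinase, had 38.1 and 49.1 CPM against 33.9 and 42.2 CPM. Neither passed the test, with log2 fold changes of −0.12 and 0.20.

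Per kilobase of exon in GENCODE release 29, CDKN1A and PLK2 had the highest mean levels over the 4 libraries, 188 and 136 CPM per kb, followed by GADD45A at 54.6 CPM per kb. The lowest were the fructose bisphosphatase TIGAR at 0.404, MDM4 at 1.74 and BBC3 at 2.11 CPM per kb. The exon lengths join all annotated isoforms, so a gene with long rare isoforms is placed too low.

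Apoptosis and survival genes were led by the fall of PHLDA3. PHLDA3, a pleckstrin homology protein that competes with AKT for membrane lipids and so limits survival signalling, had 69.2 and 77.3 CPM in the libraries labelled sg53BP1, against 110.4 and 143 CPM in those labelled sgControl. The groups did not overlap. PHLDA3 averaged 73.3 ± 5.76 CPM in the libraries labelled sg53BP1 and 127 ± 23.1 CPM in those labelled sgControl (SD, n = 2 each), 1.73-fold lower (log2 fold change −0.79, SE 0.15, edgeR adjusted p = 0.0214). The authors' deposited table gave PHLDA3 a log2 fold change of 0.77, again control over knockout, with an adjusted p of 7.77e-04. A block for replicate number gave PHLDA3 an adjusted p of 0.0437, and without replicate 1 or replicate 2 labelled sg53BP1 it was 0.464 and 0.367. In GENCODE release 29 PHLDA3 overlaps AC096677.2, with which it can share reads.

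The other 10 apoptosis and survival genes did not pass the test. TNFRSF10B, the death receptor DR5, had 227 and 199 CPM in the libraries labelled sg53BP1, against 251 and 262 CPM in those labelled sgControl, and was below both of them without passing (log2 fold change −0.27, edgeR adjusted p = 0.295). FAS, another death receptor, had 58.8 and 57.8 CPM against 60.1 and 76.8 CPM. The pore-forming protein BAX had 109 and 124 CPM against 91.3 and 133 CPM. FAS thus lay below both libraries labelled sgControl by a narrow margin, while BAX lay between them. AEN, a nuclease that promotes apoptosis, had 89.3 and 80.0 CPM against 72.4 and 133 CPM. TP53INP1, a stress protein of autophagy and cell death, had 40.2 and 35.2 CPM against 30.1 and 60.7 CPM, and EDA2R, a receptor of the tumour necrosis factor family, had 28.9 and 26.4 CPM against 22.1 and 42.1 CPM. These 3 genes were between the libraries labelled sgControl, which stood 1.83-fold, 2.01-fold and 1.91-fold apart. BBC3, the BH3-only killer PUMA, had 86 and 110 counts in the libraries labelled sg53BP1, against 96 and 171 counts in those labelled sgControl. After scaling for depth the ratio of the groups' counts was 0.680, and counting error alone (Clopper-Pearson, 95%) allows 0.562 to 0.820, but the edgeR adjusted p, which includes the spread between libraries, was 0.410. ZMAT3, an RNA-binding protein, TRIAP1, an inhibitor of apoptosis, and TP53I3, a quinone oxidoreductase, overlapped between the groups, with log2 fold changes of −0.06, 0.12 and −0.12.

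**Figure D2:**
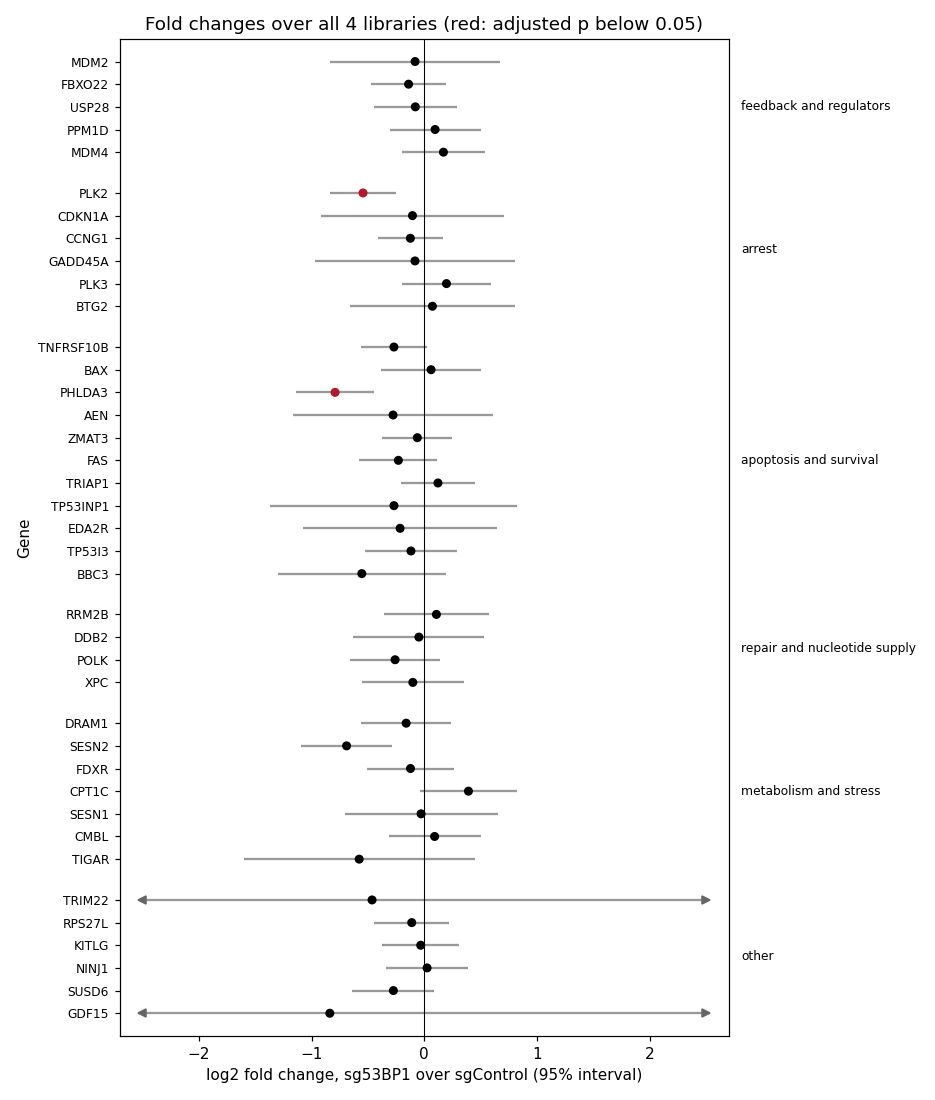
log2 fold change of each p53 gene, sg53BP1 over sgControl, with its 95% interval from the edgeR quasi-likelihood fit on all 4 libraries; arrows mark intervals that run beyond the axis. PHLDA3 at −0.79 and PLK2 at −0.54 are the called genes, and the intervals of GDF15 and TRIM22 are the widest.

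No gene of DNA repair or nucleotide supply passed the test. RRM2B, the subunit of ribonucleotide reductase that p53 induces, had 92.8 and 80.2 CPM in the libraries labelled sg53BP1, against 64.6 and 95.9 CPM in those labelled sgControl. DDB2, which recognises ultraviolet lesions, had 25.9 and 27.6 CPM against 20.7 and 34.6 CPM, and XPC, which recognises distorted DNA, had 20.4 and 20.5 CPM against 17.8 and 26.1 CPM. All of these lay between the libraries labelled sgControl. The translesion polymerase POLK had 27.5 and 20.7 CPM against 27.2 and 30.5 CPM. None of these 4 genes was called, and their log2 fold changes ran from −0.26 to 0.11.

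Among metabolic and stress genes SESN2 came closest to the threshold. SESN2, a leucine sensor that restrains mTORC1, had 38.9 and 39.1 CPM in the libraries labelled sg53BP1, against 52.0 and 73.7 CPM in those labelled sgControl. Both libraries labelled sg53BP1 were below both others, where the mean was 62.8 ± 15.3 CPM (SD, n = 2; log2 fold change −0.69, SE 0.18, edgeR adjusted p = 0.0662). SESN2 passed with the DESeq2 Wald test (adjusted p = 0.0261) and when low-count genes were kept (adjusted p = 3.44e-04), and its adjusted p was 0.0281 in the authors' deposited table. Its paralogue SESN1, also an inhibitor of mTORC1, had 18.9 and 17.9 CPM against 13.3 and 24.2 CPM and lay between the libraries labelled sgControl. The difference between the paralogues was not tested. CPT1C, a carnitine palmitoyltransferase relative best known from neurons, had 21.7 and 29.1 CPM against 17.7 and 21.1 CPM, above both libraries labelled sgControl (log2 fold change 0.39, edgeR adjusted p = 0.308). FDXR, the reductase that feeds electrons to mitochondrial ferredoxin, had 22.4 and 23.0 CPM against 21.6 and 27.9 CPM. DRAM1, a lysosomal protein of autophagy, had 61.5 and 51.6 CPM against 72.6 and 53.9 CPM, and the hydrolase CMBL had 17.3 and 17.1 CPM against 14.5 and 17.7 CPM. None of these 3 was called. TIGAR, which lowers glycolytic flux, had 29 and 18 counts in the libraries labelled sg53BP1, against 34 and 31 counts in those labelled sgControl, a depth-scaled ratio of 0.669 for which counting error alone allows 0.450 to 0.989. TIGAR had a log2 fold change of −0.58 and was not called.

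Secreted and other targets included the members with the widest spread. GDF15, a stress cytokine of the TGF-beta family, had 137 and 139 counts in the libraries labelled sg53BP1, against 37 and 422 counts in those labelled sgControl. TRIM22, an antiviral ligase that p53 and interferon both induce, had 167 and 151 CPM against 40.1 and 398 CPM. In both genes the libraries labelled sg53BP1 were within 1.5-fold of each other and lay between the others. The 95% intervals of the log2 fold change were wide, −6.34 to 4.66 for GDF15 and −6.12 to 5.19 for TRIM22. TRIM22 overlaps TRIM5, another antiviral gene, on the opposite strand. RPS27L, a ribosomal protein S27 relative that can share reads with RPS27, had 144 and 155 CPM against 141 and 181 CPM. KITLG, the ligand of the receptor KIT, had 51.4 and 48.9 CPM against 45.8 and 56.7 CPM, and NINJ1, a protein of plasma membrane rupture, had 37.2 and 45.4 CPM against 36.6 and 44.6 CPM. SUSD6, a membrane protein that p53 induces, had 23.1 and 20.7 CPM against 28.6 and 24.4 CPM. None of these 4 was called.

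The members differed more between the libraries labelled sgControl than between those labelled sg53BP1, and so did all tested genes to a lesser degree. The median absolute log2 difference was 0.36 against 0.14 for the members and 0.23 against 0.15 for all tested genes. The SD was larger in the libraries labelled sgControl for 76.9% of members and 64.3% of all tested genes. Replicate 2 labelled sgControl was higher than replicate 1 for 34 of 39 members, beside 50.1% of all tested genes, and the median log2 difference was 0.35 for the members and 0.00095 for all tested genes. A difference of at least 1.5-fold in this direction was seen for 12 members, or 30.8%, against 10.9% of all tested genes, and in the opposite direction for none of the members and 6.26% of all tested genes. These 12 were CDKN1A, MDM2, GADD45A, BTG2, BBC3, AEN, EDA2R, TP53INP1, DDB2, SESN1, GDF15 and TRIM22, which come from each of the 6 functional classes. The members that were lower in replicate 2 were CCNG1, TP53I3, TIGAR, DRAM1 and SUSD6. By contrast the libraries labelled sg53BP1 stood at least 1.5-fold apart for 1 member, TIGAR, with few counts, beside 6.18% of all tested genes, and their median log2 difference over the members was −0.02. The 39 members together took 0.321% and 0.314% of all counts in the libraries labelled sg53BP1, against 0.303% and 0.441% in replicates 1 and 2 labelled sgControl. With 1 library on each side these differences have no replicate check and no test.

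**Figure D3:**
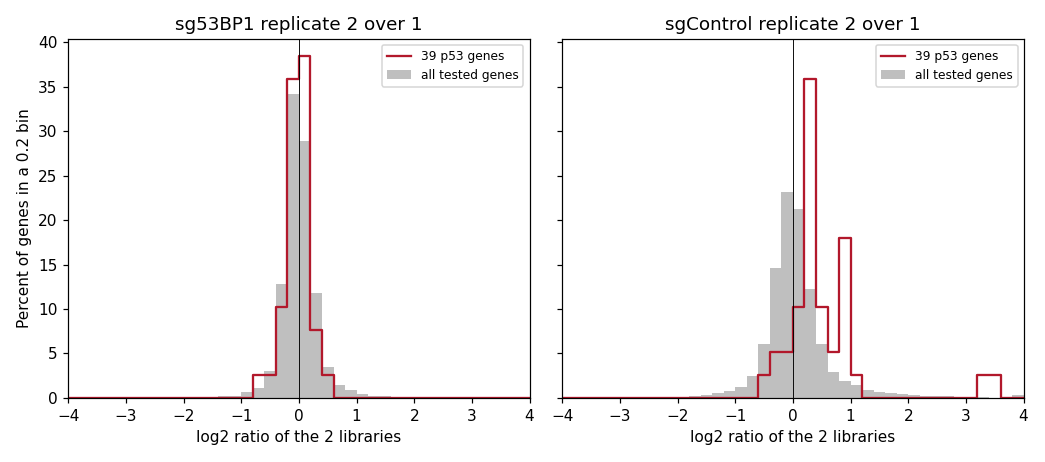
Distribution of the log2 ratio of replicate 2 to replicate 1 for the libraries labelled sg53BP1 (left) and sgControl (right), as percent of genes per bin, for the 39 p53 genes (red line) and all 13140 tested genes (grey bars, with the few values past the axis placed at its ends). The members centre on −0.02 in the pair labelled sg53BP1 and on 0.35 in the pair labelled sgControl.

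Both libraries labelled sg53BP1 lay between the libraries labelled sgControl for 18 of 39 members, or 46.2%, against 17.6% of all tested genes. They lay below both for 8 members, against 25.9% of all tested genes, and above both for 2 members, MDM4 and CPT1C, against 24.8%. The 8 below were PLK2, PHLDA3, SESN2, TNFRSF10B, CCNG1, FAS, SUSD6 and TIGAR. CCNG1 was close to a tie, with 155.25 CPM in replicate 1 labelled sg53BP1 against 155.34 CPM in replicate 2 labelled sgControl. TIGAR rests on few counts.

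Set against 1 library labelled sgControl at a time, the members gave different answers. Against replicate 2 alone, 13 members, or 33.3%, were called lower in the libraries labelled sg53BP1, beside 12.7% of tested genes, and none higher, beside 11.8%. Against replicate 1 alone, 9 members, or 23.1%, were called higher, beside 8.77% of tested genes, and 3, or 7.69%, lower, beside 9.65%. In these fits the lone library labelled sgControl is assumed to vary like the libraries labelled sg53BP1, and both share the libraries labelled sg53BP1. The log2 fold change of CDKN1A was 0.39 against replicate 1 and −0.44 against replicate 2 (edgeR adjusted p = 0.00655 and 6.38e-04). MDM2 gave 0.37 and −0.39, GADD45A 0.44 and −0.43, GDF15 1.78 and −1.68, and TRIM22 1.99 and −1.29, all past the threshold in both. These 5 genes thus took opposite directions depending on the library used. BTG2, BAX, RRM2B and CPT1C were called higher against replicate 1 alone, and BBC3, FAS, AEN, EDA2R and TP53INP1 were called lower against replicate 2 alone. Only PHLDA3 (−0.58 and −0.93), PLK2 (−0.42 and −0.62) and SESN2 (−0.41 and −0.89) among the members were called lower against each library. The share of all tested genes called in both fits, in the same or in opposite directions, was not counted. The median log2 fold change of the members was 0.21 against replicate 1 and −0.27 against replicate 2.

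**Figure D4:**
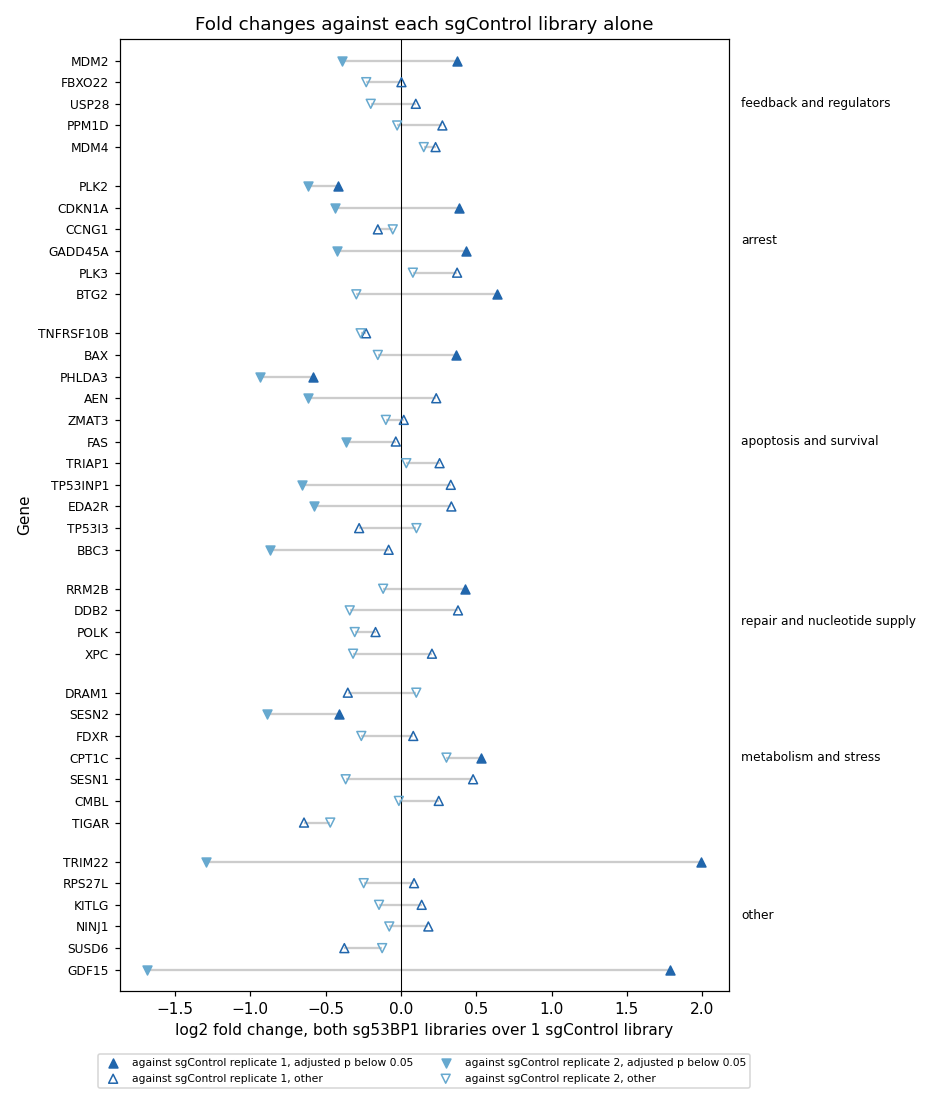
log2 fold change of each p53 gene in both libraries labelled sg53BP1 over a single library labelled sgControl, replicate 1 (up triangles) or replicate 2 (down triangles), filled where the adjusted p was below 0.05. CDKN1A, MDM2, GADD45A, GDF15 and TRIM22 have filled marks on both sides of 0, and PHLDA3, PLK2 and SESN2 have both filled marks below 0.

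Promoter sequence was set beside this layout, a comparison chosen after the levels had been seen and therefore given without a test. Of the 39 members 31 had a RefSeq promoter window, 250 bases before to 50 after a start on GRCh38.p14. Of these, 10 members, or 32.3%, held a match to the p53 response element with no gap between its decamers and at most 3 letters off, against 6.39% of all genes in the table. The members were chosen as p53 genes, so a higher share of matches follows from that choice. Counted by window, 24.4% of 45 member windows held one, against 5.2% of all windows. The consensus is its own reverse complement, so each match holds on both strands. In 9 of the 10 members with a match, all but FAS, both libraries labelled sg53BP1 lay between those labelled sgControl, and this held for 4 of the 21 members whose windows had no match. The 8 members without a window are in neither count. Of these, CMBL, GADD45A, RRM2B, TP53INP1 and TRIM22 also lay between, while FBXO22, PHLDA3 and TNFRSF10B did not. Replicate 2 labelled sgControl was higher than replicate 1 for 10 of 10 members with a match, by 1.24-fold to 10.8-fold, and for 16 of 21 without. All members were read in the same libraries, so they are not replicates of this difference. Of all tested genes 17.6% had both libraries labelled sg53BP1 between those labelled sgControl, and 50.1% were higher in replicate 2 labelled sgControl. These shares were not counted among all genes with a match, so the split of the members has no such background. Any part of the element in the layout was not tested. The letters of these elements are given because they show how close each is to the consensus: DDB2 is 1 letter off, AEN, FAS and the upstream MDM2 element 2, and the rest 3. The MDM2 elements stand in its promoter above. Capitals mark the 20 bases of the element.
DDB2 (chr11:47214964-47214993, plus): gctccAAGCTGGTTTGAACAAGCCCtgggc
AEN (chr15:88621301-88621330, plus): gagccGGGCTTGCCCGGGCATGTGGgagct
FAS (chr10:88991304-88991333, plus): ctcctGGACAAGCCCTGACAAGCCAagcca
SESN1 (chr6:109009013-109009042, minus): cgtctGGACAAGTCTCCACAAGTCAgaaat
XPC (chr3:14178565-14178594, minus): aagtgGAATTTGCCCAGACAAGCAAcatgg
KITLG (chr12:88580628-88580657, minus): cgagcGGACAAGGTTGGCCTAATCTgccaa
RPS27L (chr15:63157522-63157551, minus): aggagGGCCTAGAGCAGACAAGCCCgcccc
FDXR (chr17:74872991-74873020, minus): ggcccGGGCAGGAGCGGGCTTGCCCtgcgg
GDF15 (chr19:18386181-18386207, plus): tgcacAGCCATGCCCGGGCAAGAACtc

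PLK2 and SESN2, which lay below both libraries labelled sgControl, and CDKN1A, whose known p53 elements lie further upstream, had no such match in their windows. The closest 20 bases before the start were 5 letters off in each. The PLK2 promoter is shown as the called member with a window (chr5:58460087-58460336, minus strand), with its closest 20 bases in capitals. No match says only that these letters are absent from this window.
PLK2 promoter: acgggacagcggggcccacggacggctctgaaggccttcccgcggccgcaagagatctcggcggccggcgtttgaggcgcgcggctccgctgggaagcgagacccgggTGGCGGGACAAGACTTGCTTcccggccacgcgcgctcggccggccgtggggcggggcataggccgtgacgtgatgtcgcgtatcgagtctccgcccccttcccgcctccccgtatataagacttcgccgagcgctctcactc

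Of further p53-activated targets that are not among the 39, 67 were tested. In the libraries labelled sg53BP1, 2 of these 67 were called higher and 4 were called lower, beside 2.07% and 3.01% of all tested genes. The median log2 fold change of the 67 was −0.02. The growth factor TGFA had 38.3 and 35.4 CPM in the libraries labelled sg53BP1, against 4.70 and 7.32 CPM in those labelled sgControl, 6.12-fold higher (edgeR adjusted p = 5.71e-04), and SFN, the checkpoint protein 14-3-3 sigma, had 105 and 106 counts against 8 and 4 (edgeR adjusted p = 0.00227). Among the genes called lower, and named after their values were seen, PAG1, E2F7 and STEAP3 were 1.99-fold, 1.59-fold and 1.59-fold lower. TGFA also responds to many other signals. Between the libraries labelled sgControl, 47 of these 67 genes were higher in replicate 2, beside 50.1% of all tested genes. Their median log2 difference was 0.23. A difference of at least 1.5-fold was seen for 11 in this direction and for 6 in the opposite one, beside 10.9% and 6.26%. Both libraries labelled sg53BP1 lay between those labelled sgControl for 16 of the 67, beside 17.6% of all tested genes. They lay above both for 17 and below both for 17, beside 24.8% and 25.9%.

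Of the other regulators and partners of p53, 49 were tested. Of these 49 tested, TP53BP1 alone was called higher and PPP1R13L alone lower, with a median log2 fold change of 0.0081. Over all tested genes 2.07% were called higher and 3.01% lower. PPP1R13L, the inhibitory p53-binding protein iASPP, had 29.6 and 33.8 CPM in the libraries labelled sg53BP1, against 51.8 and 61.6 CPM in those labelled sgControl, 1.79-fold lower (edgeR adjusted p = 0.0157). Between replicates 2 and 1 labelled sgControl the median log2 difference of these regulators was −0.0053, beside 0.35 for the 39 members.

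Cell cycle genes that p21 and the DREAM complex are known to repress rose in part in the libraries labelled sg53BP1. Of 42 tested, 11 were called higher and none lower, and the sign was positive for 40 (median log2 fold change 0.28). Over all tested genes 2.07% were called higher and 3.01% lower, and the sign was positive for 6233 of 13140 (median −0.02). MYBL2, a transcription factor of dividing cells, had 84.2 and 84.3 CPM in the libraries labelled sg53BP1, against 36.1 and 29.4 CPM in those labelled sgControl (2.57-fold, edgeR adjusted p = 0.00194). The nucleotide enzyme RRM2 was 2.05-fold and the helicase subunit MCM5 1.81-fold higher (edgeR adjusted p = 0.00485 and 0.00554). CDKN1A itself, given above, was not called, and any part of p21 in the levels of these genes was not tested. Between the libraries labelled sgControl the same 42 genes were lower in replicate 2 for all but 4, with a median log2 difference of −0.29. Of all tested genes 50.1% were higher in replicate 2.

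Interferon-stimulated genes had the layout of TRIM22 across the libraries. The listed genes, 28 of them tested and none of them a member, summed to 6825 and 6290 CPM in the libraries labelled sg53BP1, against 3942 and 15235 CPM in replicates 1 and 2 labelled sgControl. All 28 were higher in replicate 2 labelled sgControl than in replicate 1, with a median log2 difference of 2.08, and both libraries labelled sg53BP1 lay between them for 20 of the 28. Of all tested genes 50.1% were higher in replicate 2, and 17.6% had both libraries labelled sg53BP1 between. OASL, an antiviral protein, was the only one called, 6.63-fold lower in the libraries labelled sg53BP1 (edgeR adjusted p = 8.30e-05), beside 3.01% of all tested genes called lower. The part of the interferon-stimulated genes, or of the lower mitochondrial share of replicate 2 labelled sgControl, in the members' levels was not tested.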

How the data were processed

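Per the submitters' processing notes, reads were handled on hg19 by HISAT2 2.1.0, HTSeq 0.6.0 and Bowtie2 2.2.3. What each tool did, the gene annotation and the strandedness of counting are not stated in the sources used here. The authors deposited unnormalized read counts per gene and, beside them, their own comparison, which holds p-values, raw and adjusted, a log2 fold change, its error, a score (the test statistic) and a mean signal per gene. For 667 of 667 called genes that log2 fold change had the opposite sign to sg53BP1 over sgControl. Of 20050 rows, 397 repeats of an identifier were removed. Count columns were matched to samples by the labels' descriptions. Groups were compared with edgeR 4.0.16 in R 4.3.3 (filterByExpr, TMM, robust quasi-likelihood F test, Benjamini-Hochberg, threshold 0.05), a procedure tested on simulated data. The simulated counts had the same dispersion for every gene and in both groups. They therefore do not check the procedure under the unequal spread of these groups. Levels are TMM-scaled CPM; differences between the libraries of a group use log2 CPM with a prior count of 2. Standard errors and 95% intervals come from the F statistic. Counting intervals and floors reflect counting error only, and 3 counts equal 0.166 to 0.181 CPM.

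The comparison was repeated with the Wald test of DESeq2 1.42.0 and its size factors, with voom from limma 3.58.1, with library totals, with all genes kept or with those averaging 5 CPM or more, with a block for replicate number, and without each library in turn. The members and lists were chosen with earlier results of these data known. All members are reported, called members with full statistics, and from each comparison list up to 3 called genes with the smallest adjusted p; others are said to be named after their values were seen. In GENCODE release 29, on another build and used only for names, lengths and overlaps, 21 of 39 members overlap another gene (leaving aside small RNAs and processed pseudogenes), and without a stated strand shared reads cannot be told apart. The promoter windows are RefSeq sequences on GRCh38.p14. One gene of a comparison list is not reported here.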

Additional observations from a re-analysis of the deposited data

How the results depend on the processing

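The number of members called lower, 2 over all 4 libraries, was 1 with DESeq2 size factors, with library totals and with a replicate block, beside 2.86%, 2.91% and 1.29% of all tested genes, and 3 with low-count genes kept and with the DESeq2 Wald test, beside 4.77% and 4.33%. It ran from 0 to 13 when a library was left out. Members called higher ran from 0 to 9, and the median log2 fold change from −0.27 to 0.21, when a library was left out. Over the same fits CDKN1A ran from −0.44 to 0.39, MDM2 from −0.39 to 0.37, GADD45A from −0.43 to 0.44, GDF15 from −1.68 to 1.78 and TRIM22 from −1.29 to 1.99. The cause was not tested. TIGAR did not reach a mean of 5 CPM. The labels do not say what a replicate number shares, and deviations of same-numbered libraries correlated with r = 0.03 over 13140 genes; apart from PLK2 the block changed no member's call. With 2 libraries per group, the 95% intervals of 9 members reach beyond a 2-fold change.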
